A study of Mus musculus with 6 samples.

Results

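Transcripts of the fibroblast growth factor (FGF) receptors and of the FGF ligands made in the gut were followed in mouse colon after lenvatinib, a kinase inhibitor given by mouth whose targets include the FGF receptors. The genes were taken by symbol from the deposited expression table: the receptor genes Fgfr1, Fgfr2, Fgfr3 and Fgfr4 and the ligand genes Fgf1, Fgf2, Fgf7, Fgf9, Fgf10 and Fgf18, 10 of 25339 genes in all. The groups were colon of mice given lenvatinib (3 libraries) and colon of mice given the solvent DMSO (3 libraries). The title of the series concerns colitis and the movement of B cells into the gut, and the labels used here state no strain, age, sex, dose, duration or induction of colitis. Levels are FPKM (fragments per kilobase of gene, scaled to library size), so genes are compared with each other per length, only as far as the gene lengths behind the values hold. Fold changes are differences of mean log2(FPKM + 1), lenvatinib minus DMSO, a scale on which changes of low genes come out too small.

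FGF ligands are secreted proteins that bind, together with heparan sulfate, to receptor tyrosine kinases on neighbouring cells. The active receptor phosphorylates the adaptor FRS2 and drives the RAS and ERK pathway, which in turn induces its own inhibitors such as DUSP6 and the Sprouty proteins. In the gut, mesenchymal cells make FGF7 and FGF10, which act on the epithelial (IIIb) splice form of FGFR2. Values per gene do not separate the IIIb and IIIc splice forms, and transcript levels do not measure kinase activity, which is what lenvatinib inhibits.

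None of the 10 genes passed the test between lenvatinib and DMSO. The colon expressed the receptor Fgfr2 far above every other member, with 59.8 ± 7.22 FPKM in lenvatinib libraries and 50.7 ± 1.86 FPKM in DMSO libraries (SD, n = 3 each). The 6 ligand genes were below 3 FPKM in every library. Of the 6 genes with enough signal to be tested (a mean of at least 1 FPKM), 0 passed limma at an adjusted p of 0.05, where 2.03% of all 11774 genes tested did, and 0 passed with limma's voom on the recovered reads. At an unadjusted p under 0.05 there were 2 of the 6, Fgfr4 and Fgf7, against 22% of all genes tested, and the same genes were the members whose groups did not overlap (2 of 6, against 27.5% of all genes tested). With lenvatinib 1 left out Fgfr2 and Fgfr4 passed, in a comparison where 38% of all genes passed, and 0 members passed without DMSO 1.

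The libraries were not evenly spaced. For genes with at least 10 reads, the squared difference between libraries was 2.29 times counting noise between lenvatinib 2 and 3 and 2.53 times between DMSO 2 and 3, but 10.1 to 25.2 times for all other pairs. The sample titles call every library a biological replicate. Libraries 2 and 3 of a group may still be closer than separate animals would be, which the titles do not settle. P-values here thus describe spread between libraries, not necessarily between animals. DMSO 1 was the only library with the Y-linked transcript Ddx3y above 0 and had almost no Xist. Reads recovered from the values totalled 37660528 to 39287783 per library.

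The start sites of Fgfr4 and Fgf7, the members without overlap between groups, are shown as RefSeq gives them on build GRCm38.p6 (250 bases before to 50 bases after the start; the expression values were made on GRCm39). Fgfr4 lies at chr13:55152568-55152867 and Fgf7 at chr2:126034408-126034707, both on the plus strand. Capitals mark the GC box GGGCGG, searched on both strands, a motif bound by Sp1-type factors. The Fgfr4 window held 4 copies and the Fgf7 window 0, and 35.7% of all 32851 promoter windows held at least 1. A window of Fgfr3, whose groups overlapped, also held 4, and the remaining windows of the members held 0 or 1. The GC content was 65.3% at Fgfr4 and 45.7% at Fgf7, against a median of 52.7%. Windows were found for 8 of the 10 members.
Fgfr4: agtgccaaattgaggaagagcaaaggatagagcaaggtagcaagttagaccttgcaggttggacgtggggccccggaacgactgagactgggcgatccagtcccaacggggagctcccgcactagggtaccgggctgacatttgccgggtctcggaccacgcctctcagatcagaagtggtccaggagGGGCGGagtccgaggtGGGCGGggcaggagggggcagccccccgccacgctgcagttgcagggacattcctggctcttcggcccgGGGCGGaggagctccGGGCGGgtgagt
Fgf7: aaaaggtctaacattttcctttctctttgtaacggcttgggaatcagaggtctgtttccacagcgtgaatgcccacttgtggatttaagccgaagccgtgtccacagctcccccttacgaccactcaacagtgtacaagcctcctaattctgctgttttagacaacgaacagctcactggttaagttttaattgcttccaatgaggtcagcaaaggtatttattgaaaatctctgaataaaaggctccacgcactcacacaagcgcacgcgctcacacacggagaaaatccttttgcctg

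Fgfr2, the receptor that carries FGF7 and FGF10 signals into epithelium, measured 51.5, 63.9 and 64.0 FPKM in lenvatinib 1 to 3, against 49.1, 50.3 and 52.8 FPKM in DMSO 1 to 3. Lenvatinib 2 and 3 lay above all DMSO libraries, and lenvatinib 1 lay within the DMSO range. The log2 fold change of 0.23 (SE 0.0982, 95% interval -0.01 to 0.46) did not pass (limma adjusted p = 0.240). Without lenvatinib 1 it was 0.33 and passed (adjusted p = 0.00649). Ctbp2 shares 314 bases of exon with Fgfr2 on the same strand in the GENCODE annotation, and it measured only 2.53 to 3.10 FPKM.

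Fgfr4, a receptor that with its partner beta-Klotho responds to the hormone FGF15, measured 2.34, 1.95 and 2.05 FPKM in lenvatinib 1 to 3, against 2.68, 2.69 and 2.52 FPKM in DMSO 1 to 3. All lenvatinib libraries lay below all DMSO libraries. These values rest on 301, 255 and 266 reads in the lenvatinib libraries, against 342, 358 and 329 reads in the DMSO libraries. The log2 fold change was -0.22 (SE 0.0796, 95% interval -0.42 to -0.03; limma adjusted p = 0.189). An exact permutation test gave p = 0.1, the smallest that 3 against 3 allows, and with libraries 2 and 3 averaged p = 0.333, the smallest that 2 against 2 allows. Without lenvatinib 1 the fold change was -0.28 and passed (adjusted p = 0.0202).

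Fgfr1, the receptor typical of mesenchyme and endothelium, measured 4.97, 3.50 and 3.69 FPKM in lenvatinib 1 to 3, against 4.54, 3.61 and 3.83 FPKM in DMSO 1 to 3. In both groups library 1 was the highest, and the groups overlapped. The difference was 0.01 (SE 0.134, 95% interval -0.31 to 0.33; limma adjusted p = 0.969), and it was -0.12 without lenvatinib 1. Fgfr3, a receptor for FGF9 and FGF18, measured 2.84, 3.72 and 3.93 FPKM in lenvatinib 1 to 3, against 4.38, 3.52 and 3.50 FPKM in DMSO 1 to 3. Here the lowest lenvatinib library and the highest DMSO library were both number 1, and the other 4 libraries lay close together. The difference was -0.10 (SE 0.127, 95% interval -0.40 to 0.21; limma adjusted p = 0.649), 0.012 without lenvatinib 1 and 0.0051 with quantile normalization, where its sign changed.

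**Figure D1:**
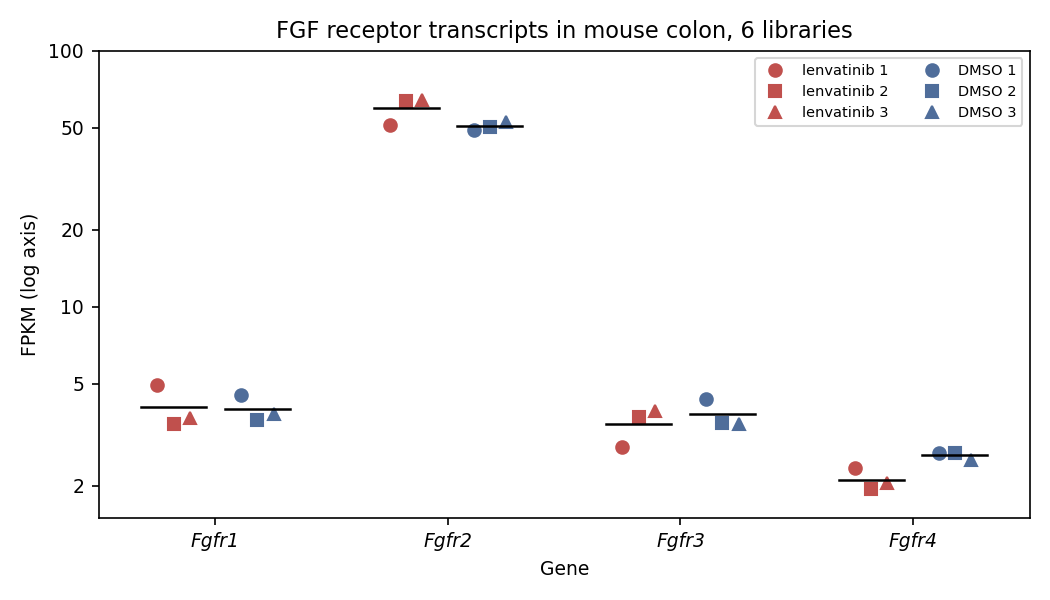
FPKM of the 4 FGF receptor genes (log axis) in each library, lenvatinib left of DMSO within each gene; marker shapes are libraries 1 to 3 and bars are group means. Fgfr2 sits at 49.1 to 64.0 FPKM and the other receptors at 1.95 to 4.97 FPKM.

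Summed over the 4 receptors, the colon held 61.6, 73.1 and 73.7 FPKM in lenvatinib 1 to 3, against 60.7, 60.2 and 62.6 FPKM in DMSO 1 to 3 (exact permutation test, two-sided p = 0.2). Fgfr2 made up 83.5, 87.5 and 86.9% of that sum in lenvatinib 1 to 3, against 80.9, 83.7 and 84.3% in DMSO 1 to 3 (exact permutation p = 0.3). The groups overlapped in both measures. By level the receptors ranked Fgfr2, Fgfr1, Fgfr3 and Fgfr4. The ranges of Fgfr1 and Fgfr3 over the 6 libraries overlapped, whereas every deposited Fgfr3 value (2.84 FPKM and above) exceeded every Fgfr4 value (2.69 FPKM and below). That separation came with the deposited gene lengths: with GENCODE M21 exon lengths Fgfr3 averaged 2.25 ± 0.369 in lenvatinib and 2.44 ± 0.323 in DMSO libraries, and Fgfr4 2.02 ± 0.198 and 2.51 ± 0.0946 (reads per kilobase scaled as in FPKM; SD, n = 3 each). Of Fgfr3, 998 bases of exon are shared with G630022F23Rik on the opposite strand, which was not analysed here.

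Among the ligands, Fgf7, or keratinocyte growth factor, had the highest deposited level. It measured 1.83, 1.41 and 1.41 FPKM in lenvatinib 1 to 3, against 2.97, 1.85 and 2.12 FPKM in DMSO 1 to 3. The groups did not overlap, but lenvatinib 1 and DMSO 2 were almost equal, and DMSO 1 stood above the rest. The reads behind these levels numbered 187, 147 and 146 in the lenvatinib libraries, against 302, 196 and 221 in the DMSO libraries. The log2 fold change was -0.37 (SE 0.145, 95% interval -0.72 to -0.02; limma adjusted p = 0.214; exact permutation p = 0.1), and -0.23 without DMSO 1, which moved the value by over 1.5 times.

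Fgf10, the related ligand of the same FGFR2 splice form, measured 1.38, 1.06 and 1.06 FPKM in lenvatinib 1 to 3, against 1.41, 1.39 and 1.17 FPKM in DMSO 1 to 3. The groups overlapped because lenvatinib 1 lay among the DMSO libraries. The log2 fold change was -0.10 (SE 0.0971, 95% interval -0.33 to 0.14; limma adjusted p = 0.540), -0.17 without lenvatinib 1 and -0.06 without lenvatinib 2 or lenvatinib 3, each over 1.5 times from it.

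The other ligands were under the filter and were compared by exact permutation only. Fgf9, an activator of mesenchymal FGF receptors, measured 0.872, 0.818 and 0.787 FPKM in lenvatinib 1 to 3, against 0.827, 1.03 and 1.02 FPKM in DMSO 1 to 3. DMSO 1 lay within the lenvatinib range, and the mean difference was -0.10 on the log2 scale (exact permutation p = 0.2). Fgf2, basic FGF, measured 0.921, 0.610 and 0.537 FPKM in lenvatinib 1 to 3, against 0.693, 0.709 and 0.644 FPKM in DMSO 1 to 3. Lenvatinib 1 was the highest library and lenvatinib 3 the lowest (exact permutation p = 1). Its 3′ part overlaps the antisense gene Nudt6 (1.05 to 1.26 FPKM in lenvatinib and 0.998 to 1.27 FPKM in DMSO libraries), and without a stated strand setting their reads cannot be told apart. It also overlaps Gm43439 on its own strand, which was not analysed here.

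Fgf1, acidic FGF, which binds all FGF receptors, measured 0.360, 0.474 and 0.514 FPKM in lenvatinib 1 to 3, against 0.302, 0.532 and 0.518 FPKM in DMSO 1 to 3. Library 1 was the lowest in each group, and the groups overlapped throughout (exact permutation p = 1). Fgf18, a ligand of FGFR3 known from cartilage and lung, was at the limit of detection, with 1, 2 and 4 reads in lenvatinib 1 to 3, against 1, 2 and 4 reads in DMSO 1 to 3. The 95% exact Poisson interval of 4 reads runs from 1.09 to 10.2, so no difference was detectable at this depth. Such intervals cover counting error only.

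**Figure D2:**
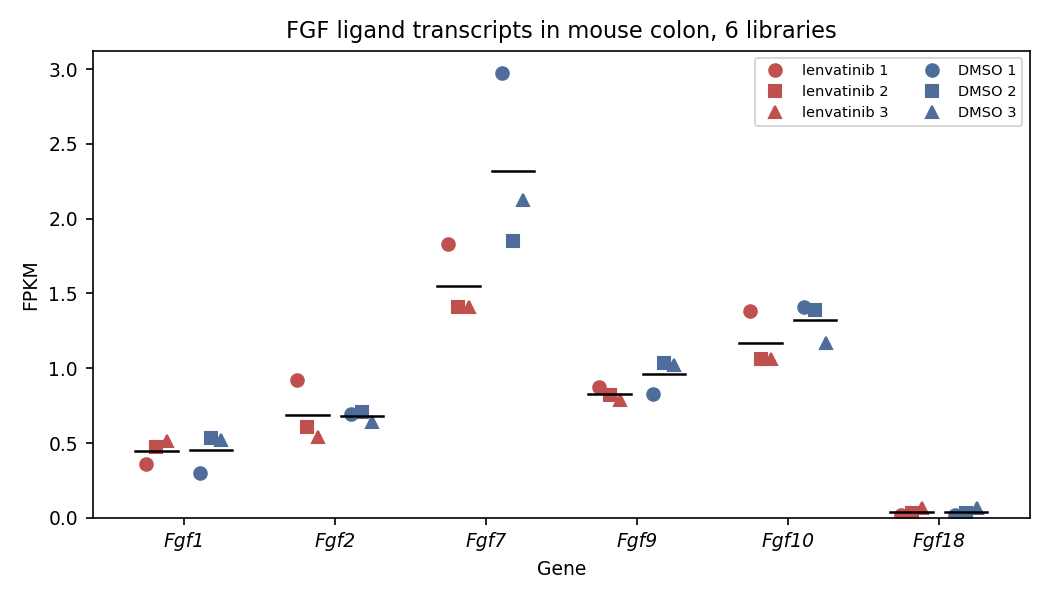
FPKM of the 6 FGF ligand genes (linear axis from 0) in each library, lenvatinib left of DMSO; shapes are libraries 1 to 3 and bars are group means. Fgf7 is the ligand with the widest gap between group means, 1.55 against 2.32 FPKM, and Fgf18 is near 0 in all 6 libraries.

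The 6 ligands together summed to 5.38, 4.40 and 4.38 FPKM in lenvatinib 1 to 3, against 6.22, 5.55 and 5.54 FPKM in DMSO 1 to 3. The groups did not overlap (difference -1.05 FPKM; exact permutation p = 0.1, the smallest possible). Fgf7 gave 32.7% of this sum on average in lenvatinib libraries and 39.8% in DMSO libraries, and Fgf10 gave 24.7% and 22.9%. The sum and these shares hold for the deposited gene lengths only. With GENCODE M21 exon lengths Fgf1 averaged 1.62 and Fgf7 1.60 over the 6 libraries.

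The order of the members depended on the gene length behind the values. The deposited Fgf1 values imply a length of 19620 bases, while its exons in the GENCODE M21 annotation cover 5463 bases. With the GENCODE lengths, Fgf1 averaged 1.61 ± 0.286 in lenvatinib libraries and 1.62 ± 0.463 in DMSO libraries (reads per kilobase scaled to library size as in FPKM; SD, n = 3 each), close to Fgf7 at 1.29 ± 0.201 and 1.92 ± 0.487. Fgf1 thereby ranked 5 instead of 9 among the 10 members. Fgfr2, with 5395 bases behind the deposited values and 10328 bases in GENCODE, remained first on either length, at 31.2 ± 3.77 in lenvatinib libraries and 26.5 ± 0.966 in DMSO libraries with the GENCODE length.

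**Figure D3:**
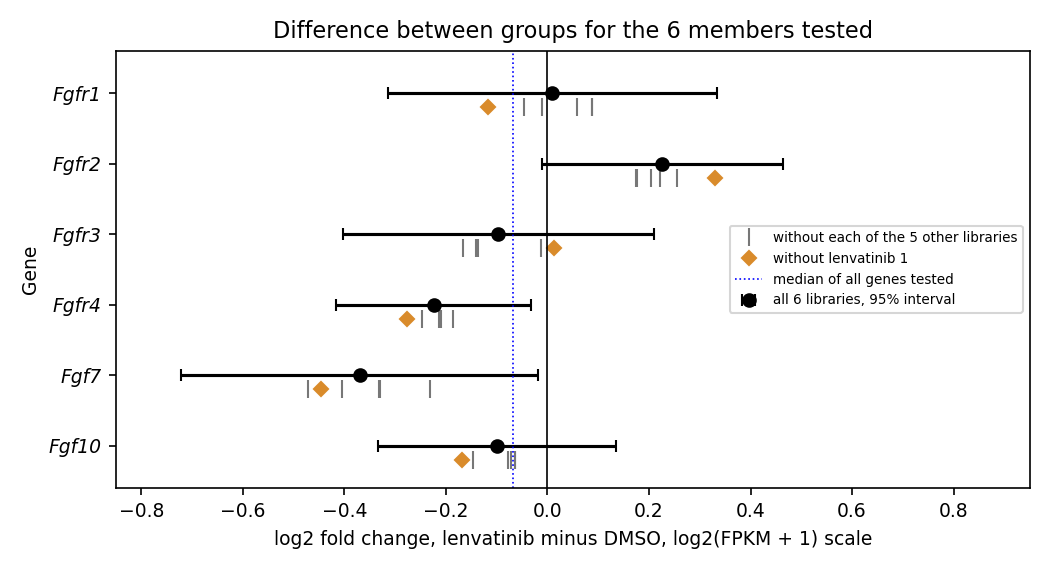
Log2 fold change (lenvatinib minus DMSO, log2(FPKM + 1) scale) of the 6 members tested: black points with 95% limma intervals use all 6 libraries, grey ticks leave out each other library and orange diamonds leave out lenvatinib 1. The intervals of Fgfr4 and Fgf7 lie below 0 before adjustment for all genes, and Fgfr2 is 0.33 without lenvatinib 1.

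Further along the pathway, the ERK feedback and target genes Dusp6, Etv5 and Phlda1 fell with lenvatinib. In a list of 17 such genes, these were 3 of the 14 tested and 0 rose, where 0.934% of all genes tested fell and 1.1% rose. The count was 0 with libraries 2 and 3 as a random block, whose correlation is estimated (adjusted p = 0.0621 to 0.281 for the 3 genes), 0 with them averaged, 0 with the replicate number as a block, and 7 without lenvatinib 1. Of the 14, 13 had log2 fold changes below 0 (63.9% of all genes tested) and 7 had all lenvatinib libraries below all DMSO libraries (17.5% of all genes tested). Dusp5 was at 0.07 and overlapped between groups, as did Myc (-0.01), Il17rd (-0.03), Spry2 (-0.23), Spred2, Fosl1 and Ccnd1. The median was -0.28, against -0.07 over all genes tested. The list was drawn up with earlier results of these data known, so its direction is a description.

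Dusp6, the ERK phosphatase induced by FGF signalling, measured 10.5, 11.1 and 10.8 FPKM in lenvatinib 1 to 3, against 17.9, 22.4 and 21.5 FPKM in DMSO 1 to 3. The gap between the groups was several times the spread within either (log2 fold change -0.86, SE 0.0928; limma adjusted p = 0.0107). Etv5, an ETS transcription factor downstream of FGF receptors, measured 1.33, 1.46 and 1.62 FPKM in lenvatinib 1 to 3, against 3.72, 4.59 and 5.43 FPKM in DMSO 1 to 3 (log2 fold change -1.17, SE 0.126; adjusted p = 0.0111). Phlda1, an ERK-induced gene, measured 12.7, 12.1 and 12.6 FPKM in lenvatinib 1 to 3, against 19.9, 18.2 and 20.1 FPKM in DMSO 1 to 3 (log2 fold change -0.60, SE 0.0633; adjusted p = 0.0102). Lenvatinib 1, which lay with the DMSO libraries for Fgfr2 and Fgf10, lay with the other lenvatinib libraries for all 3 of these genes.

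All 3 fold changes stayed negative, while the calls depended on which libraries and which model were used. Over 14 alternatives the log2 fold change was -0.96 to -0.78 for Dusp6, -1.63 to -1.06 for Etv5 and -0.64 to -0.52 for Phlda1, with adjusted p-values of 0.00196 to 0.366. All 3 genes passed without lenvatinib 1 (0.00196 to 0.00319) and without DMSO 1 (0.00700 to 0.0309). None of the 3 passed without lenvatinib 2 (0.0628 to 0.0731), without lenvatinib 3 (0.0592 to 0.0728) or without DMSO 3 (0.0535 to 0.0827), and without DMSO 2 Phlda1 alone passed (0.0480). With all 6 libraries the values were 0.0592 to 0.0768 under the replicate block, and with libraries 2 and 3 averaged they were 0.298 to 0.366. ERK feedback genes answer to many receptors, and the part of FGF receptors in these differences was not tested.

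Chosen after their values were seen, Spry4 and Etv4 had no overlap either. Spry4, a Sprouty inhibitor of RAS signalling, measured 0.612, 0.854 and 0.958 FPKM in lenvatinib 1 to 3, against 1.35, 1.59 and 1.42 FPKM in DMSO 1 to 3 (limma adjusted p = 0.0978). Etv4, a close relative of Etv5 under the filter, measured 0.0983, 0.0510 and 0.0629 FPKM, against 0.332, 0.380 and 0.466 FPKM in DMSO 1 to 3 (exact permutation p = 0.1).

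**Figure D4:**
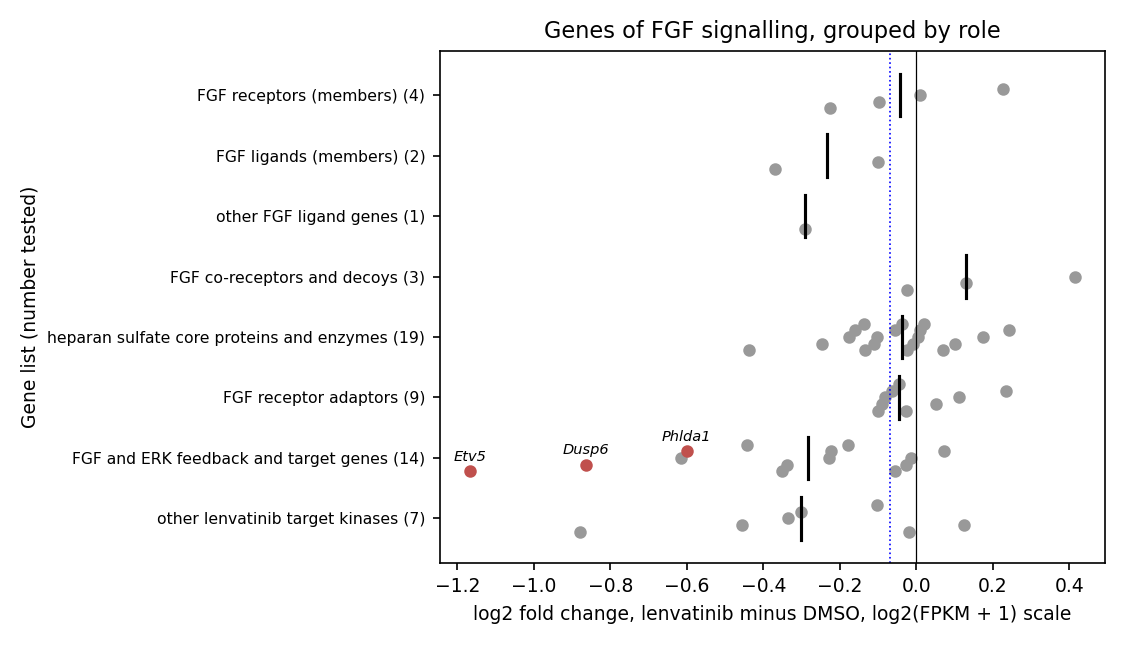
Log2 fold changes (lenvatinib minus DMSO) of tested genes in each list of FGF signalling, with the number tested in brackets; red points passed limma, black bars are list medians and the dotted line is the median of all genes tested (-0.07). The 3 genes that passed are feedback and target genes.

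Of 16 further FGF ligand genes 14 were in the table and 1 passed the filter, Fgf11, an intracellular FGF that does not act through the receptors. It measured 1.32 ± 0.177 FPKM in lenvatinib and 1.84 ± 0.194 FPKM in DMSO libraries (limma adjusted p = 0.169). Fgf15, the ileal hormone that tells the liver to lower bile acid synthesis, was looked at after its values were seen. It had 4, 14 and 22 reads in lenvatinib 1 to 3, against 5, 0 and 0 reads in DMSO 1 to 3, and the groups overlapped (exact permutation p = 0.2). Of the small intestine markers, 4 of 6 tested rose, against 1.1% of all genes tested, and Defa24 was listed at 0 in DMSO 2 and 3. The count was 3 with libraries 2 and 3 as a random block, 1 with them averaged and 2 with the replicate block. The markers summed to 292, 397 and 370 FPKM in lenvatinib 1 to 3, against 25.2, 27.1 and 27.6 FPKM in DMSO 1 to 3. Lenvatinib 1, with 292 FPKM of these markers, had 4 Fgf15 reads, and DMSO 1, with 25.2 FPKM, had 5. Single markers differed in their order over lenvatinib 1 to 3. Fabp6 measured 161, 160 and 148 FPKM there, Defa24 94.8, 139 and 124 FPKM, and Alpi 13.1, 26.7 and 26.9 FPKM. The part of small intestinal transcripts in the Fgf15 reads was not tested. Klb, which encodes the beta-Klotho that FGF15 needs, stayed at 0.0561 to 0.0654 FPKM in lenvatinib and 0.0206 to 0.124 FPKM in DMSO libraries.

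Of 8 co-receptors, decoys and carriers, 3 were tested and 0 passed in limma or voom (1 at an unadjusted p under 0.05, against 22% of all genes tested). Fgfbp1, a secreted carrier that releases FGFs from the matrix, came nearest. It measured 74.7, 82.4 and 87.4 FPKM in lenvatinib 1 to 3, against 57.6, 62.6 and 62.4 FPKM in DMSO 1 to 3. All lenvatinib libraries were above all DMSO libraries (log2 fold change 0.41, SE 0.0776; limma adjusted p = 0.0608). The decoy receptor Fgfrl1 measured 14.9 ± 1.44 FPKM in lenvatinib and 15.2 ± 0.496 FPKM in DMSO libraries, and the FGFR1-binding membrane protein Flrt3 5.54 ± 0.319 and 4.98 ± 0.328 FPKM.

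Heparan sulfate, the sugar chain that FGFs need to bind their receptors, differed little at the transcript level. Of 22 core protein and enzyme genes 19 were tested and 0 passed in limma or voom, with a median of -0.04. At an unadjusted p under 0.05 there was 1, against 22% of all genes tested. Hs3st1, a 3-O-sulfotransferase, came nearest, with 1.86 ± 0.102 FPKM in lenvatinib and 2.88 ± 0.296 FPKM in DMSO libraries (log2 fold change -0.44; limma adjusted p = 0.0658). The core protein genes Gpc1 and Agrn were 2.63 ± 0.221 and 7.13 ± 0.943 FPKM in lenvatinib libraries, against 3.10 ± 0.150 and 5.86 ± 0.632 FPKM in DMSO libraries. Of 10 receptor adaptors 9 were tested and 0 passed in limma or voom, also at an unadjusted p under 0.05. The docking protein gene Gab1 measured 2.17, 2.90 and 2.97 FPKM in lenvatinib 1 to 3, against 2.13, 2.17 and 2.03 FPKM in DMSO 1 to 3 (limma adjusted p = 0.252). Crkl and Grb2, which link receptors to RAS, had adjusted p-values of 0.347 and 0.378.

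Among 7 other kinases that lenvatinib inhibits, 0 passed in limma (3 at an unadjusted p under 0.05, against 22% of all genes tested). Of the 7, 3 had all lenvatinib libraries below all DMSO libraries, against 17.5% of all genes tested. These were the VEGF receptor genes Kdr (1.71 ± 0.559 FPKM in lenvatinib and 3.94 ± 0.571 FPKM in DMSO libraries; limma adjusted p = 0.0608) and Flt1 (adjusted p = 0.0921), and Kit (adjusted p = 0.0830). Kdr passed with voom, with upper-quartile scaling and with quantile normalization (adjusted p = 0.0492, 0.0479 and 0.0393; 0.00211 to 0.686 over 14 alternatives). The median of the 7 was -0.30, and that of the 4 FGF receptors -0.04. Whether the receptor families differ was not tested.

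Marker genes of the cells that make or receive FGFs were set beside the members. In bulk tissue, fewer cells of a type and less RNA per cell cannot be told apart. Over all genes tested, 0.934% fell and 1.1% rose in limma, and 22% had an unadjusted p under 0.05. Epithelial markers, which mark the cells with FGFR2, summed to 6768 to 6931 FPKM in lenvatinib and 7200 to 7590 FPKM in DMSO libraries, with 0 of 10 passing in limma (1 at an unadjusted p under 0.05) and none at 0. The keratin genes Krt8 (2262 to 2282 FPKM in lenvatinib and 2346 to 2676 FPKM in DMSO libraries) and Krt19 (1764 to 1824 and 1977 to 2113 FPKM) carried most of this sum. Of the 10 genes 5 lay lower and 3 lay higher in all lenvatinib libraries (Cldn7, Cdx1 and Elf3). The part of epithelial cells in the Fgfr2 values was not tested. Over all genes tested, 17.5% lay lower in this way and 27.5% lay lower or higher. Smooth muscle markers summed to 1554, 1868 and 1868 FPKM in lenvatinib 1 to 3, against 1617, 1481 and 1484 FPKM in DMSO 1 to 3 (0 of 10 passed in limma, 3 at an unadjusted p under 0.05), and lenvatinib 2 and 3 were the highest libraries there too.

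Fibroblast and mesenchyme markers, which mark the cells that make FGF7 and FGF10, summed to 608, 451 and 450 FPKM in lenvatinib 1 to 3, against 748, 723 and 721 FPKM in DMSO 1 to 3. Of these 10 genes 5 fell, against 0.934% of all genes tested, and none was at 0. The count was 4 with libraries 2 and 3 as a random block, 0 with them averaged, 3 with the replicate block and 8 without lenvatinib 1. Col3a1, a fibrillar collagen, was at 85.9 ± 1.52 FPKM in lenvatinib and 167 ± 4.0 FPKM in DMSO libraries, while Dcn, a small matrix proteoglycan, overlapped between groups (117 ± 32.3 and 106 ± 11.6 FPKM). Like Fgf7 and Fgf10, the sum was lower in lenvatinib 2 and 3 than in lenvatinib 1. The niche fibroblast, endothelial, enteric neuron and glia, macrophage and B cell sums had this order too. Dcn (154, 96.8 and 99.8 FPKM in lenvatinib 1 to 3) and Vim (174, 92.8 and 97.9 FPKM) showed it. Col1a1 (38.0, 38.7 and 36.4 FPKM) and Col3a1 (85.3, 87.6 and 84.7 FPKM), which fell, did not. Markers of the subepithelial niche fibroblasts overlapped, at 28.9 to 39.9 FPKM in lenvatinib and 30.9 to 39.1 FPKM in DMSO libraries (0 of 7 passed in limma, 2 at an unadjusted p under 0.05). Vascular endothelial markers overlapped as well, at 42.5 to 63.8 and 54.2 to 57.7 FPKM (0 of 10 passed in limma, 3 at an unadjusted p under 0.05, and Kdr with voom). Without lenvatinib 1, 8 endothelial markers passed, in a comparison where 38% of all genes passed. Markers of enteric neurons and glia did not overlap between groups, at 22.6 to 24.7 and 19.9 to 21.1 FPKM (0 of 4 passed in limma, 1 at an unadjusted p under 0.05). The part of these cell types in the ligand values was not tested.

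Immune markers differed more. Macrophage markers summed to 146 to 202 FPKM in lenvatinib and 347 to 397 FPKM in DMSO libraries, and 8 of 10 fell, against 0.934% of all genes tested. The count was 3 with libraries 2 and 3 as a random block, 0 with them averaged and 1 with the replicate block. It was also 3 without lenvatinib 2, lenvatinib 3, DMSO 2 or DMSO 3. B cell markers summed to 45.5, 10.1 and 11.3 FPKM in lenvatinib 1 to 3, against 88.9, 76.3 and 80.1 FPKM in DMSO 1 to 3 (0 of 7 passed in limma, 7 at an unadjusted p under 0.05). Without lenvatinib 1, 7 B cell markers passed, where 38% of all genes did. Of 5 mast cell markers tested 5 fell, against 0.934% of all genes tested. Their list summed to 0.174 to 0.944 FPKM in lenvatinib and 207 to 226 FPKM in DMSO libraries, with Fcer1a listed at 0 in every lenvatinib library and Mcpt4 in lenvatinib 1. The count was 3 with libraries 2 and 3 as a random block, 2 with them averaged, 3 with the replicate block and 3 without DMSO 3.

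**Figure D5:**
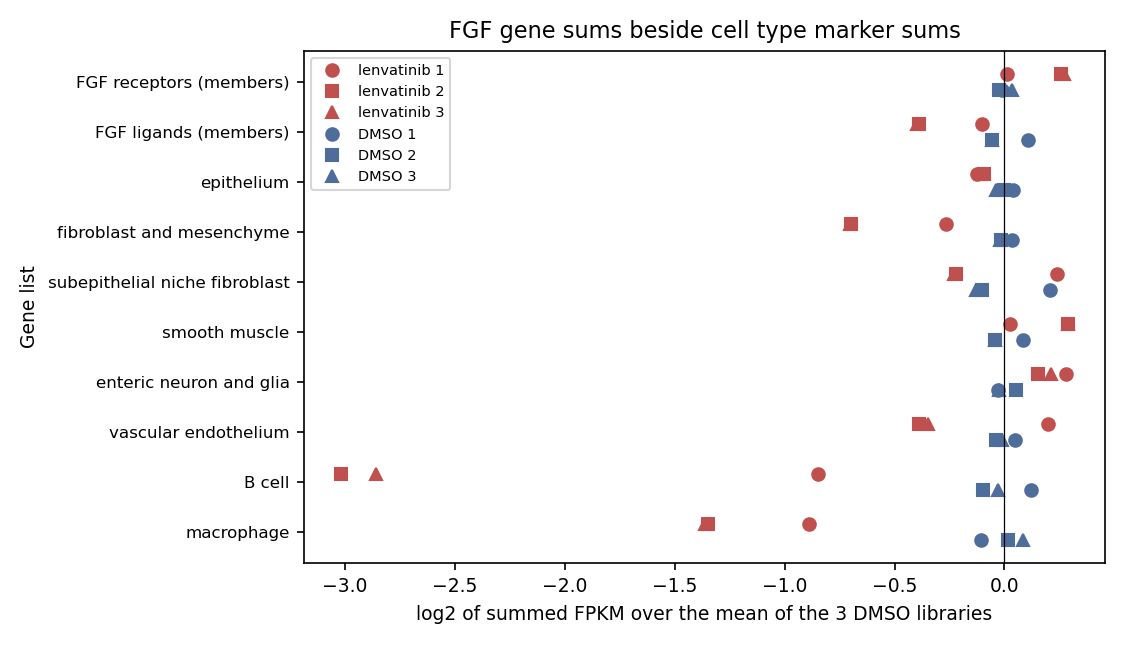
Log2 of the summed FPKM of each gene list over the mean of the 3 DMSO libraries; red is lenvatinib, drawn above blue DMSO in each row, and shapes are libraries 1 to 3. The ligand sum and the fibroblast, epithelium, macrophage and B cell sums lie below 0 in all lenvatinib libraries. The receptor sum lies above 0 mainly in lenvatinib 2 and 3.

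The genes whose profile over the 6 libraries was nearest to that of Fgf7 were Pdgfra, Chst1 and Col6a1, with root mean square differences of 0.0506, 0.0572 and 0.0592 between centred log2 values. Pdgfra encodes a fibroblast receptor tyrosine kinase, which lenvatinib also inhibits, and measured 9.97 ± 1.69 FPKM in lenvatinib and 12.9 ± 2.50 FPKM in DMSO libraries. Col6a1, a collagen VI chain, measured 48.3 ± 2.09 and 61.6 ± 8.75 FPKM. Nearest to Fgfr4 were Kctd20, Ankrd52 and Cdc42se1, at 0.0110, 0.0140 and 0.0213. None of these 6 genes passed the test (limma adjusted p = 0.145 to 0.270).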

How the data were processed

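RNA of 6 mouse colon libraries (3 lenvatinib, 3 DMSO) was measured. The authors deposited FPKM values per gene symbol. Per the submitters' processing notes, HTSeq and GRCm39 were used; for aligner, annotation and strand setting: not given in the sources used here. Libraries were grouped by their labels, and 0 columns were left unused. Whole reads were recovered from the FPKM steps (all 23951 genes above 0, within 0.01 reads). They rest on the smallest whole numbers that the values allow.

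A mean of at least 1 FPKM was required, and the genes were tested on log2(FPKM + 1), pseudocount 1, with limma 3.58.1 in R 4.3.3 (trended, robust, two-sided, Benjamini-Hochberg, threshold 0.05). Single values were compared by exact permutation in scipy 1.17.1. On simulated data (11774 genes) the test recovered 76% of genes changed by 1 and 98% changed by 2 on the log2 scale, with 8 false calls. The simulated libraries were independent, so these rates do not cover the closeness of libraries 2 and 3. Changes as small as those of the members (-0.37 for Fgf7) were not simulated.

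The members, lists and alternatives were chosen with earlier results of these data known. Named are all members, list genes that passed or else the 3 smallest p-values, abundant markers, and the 3 nearest profiles of members without overlap; Spry4, Etv4, Fgf15, Klb, Ctbp2, Nudt6, Ddx3y and Xist were added after seeing the values. For long lists not every marker is printed. Promoter windows are RefSeq's. Same-numbered libraries of the 2 groups did not deviate together.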

Additional observations from a re-analysis of the deposited data

How the results depend on the processing

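Of 84 combinations of 6 tested members and 14 alternatives, 77 kept the direction and the side of the threshold. Fgfr2 and Fgfr4 passed without lenvatinib 1, and leaving out libraries in turn gave -0.12 to 0.088 for Fgfr1, 0.17 to 0.33 for Fgfr2, -0.17 to 0.012 for Fgfr3 and -0.28 to -0.19 for Fgfr4. Fgfr3 was 0.0051 with quantile normalization. Fgf9 was -0.19 with a pseudocount of 0.1, which shrinks changes of low genes less than a pseudocount of 1. The cause of the other changes was not tested. Over all 14 alternatives Fgf7 ranged from -0.56 to -0.23, Fgf10 from -0.18 to -0.01 and Fgfr4 from -0.32 to -0.11. Members called were 0 to 2 over the left-out libraries and 0 under all other alternatives.

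Over all genes, 239 passed (25 in the pathway and marker lists), 140 with no filter, which tests more genes, 4 (3 in the lists) with libraries 2 and 3 averaged, 46 (13) with them as a random block, and 44 to 4456 (13 to 68) without single libraries. With the replicate number as a block, 29 passed (9 in the lists) and no member, and Dusp6, Etv5 and Phlda1 no longer passed. Deviations of same-numbered libraries from their group means correlated at -0.196, -0.159 and -0.150. With libraries 2 and 3 alike within each group, these values cannot settle whether the numbers pair the samples. The permutation tests of the sums gave p = 0.25 within replicate numbers, the smallest possible there. Upper-quartile scaling moved the median of all genes tested to 0.01, with 274 calls. Counting error limits Fgf18 and Fgf15.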
